A study of Homo sapiens with 6 samples.

Results

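Heat shock proteins and the DNAJ co-chaperones that work with them were examined in K562 cells exposed for 3 h to cortistatin A (CA). The members were 40 named genes of the HSP70, HSP90, HSP60 and small heat shock protein families, the DNAJ (HSP40) families, their BAG, HSP90 and HSP70 co-chaperones, and the heat shock factors HSF1 and HSF2. All array probe sets other than controls whose annotation gave 1 symbol from that list were taken. This gave 90 probe sets, of which 80 were bright enough to be tested, and 35 of the 40 genes were measured, among 12810 genes measured on the arrays. The 5 genes without a probe set of their own were HSPA1A, HSPA1B, HSPA8, HSF2 and AHSA1, which are not counted among the measured members. HSPA1A, HSPA1B and HSPA8 had only probe sets shared with other symbols, and the annotation listed HSF2 and AHSA1 for no probe set.

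K562 is an established human leukaemia line, of chronic myelogenous type, and carries the BCR-ABL1 fusion kinase. The CA group was 3 wells with 25 nM CA for 3 h, and the DMSO group was 3 wells with the vehicle for the same time, all in RPMI medium with serum. CA inhibits the Mediator kinases CDK8 and CDK19. Each well gave 1 Affymetrix U133 Plus 2.0 array, and signals below are RMA values on the log2 scale, with CA minus DMSO differences. The labels tell wells apart but not separate cultures or days, so the p-values measure the spread between these wells, which may be technical. The study is of 1 line with 1 dose and 1 time, and no heat shock was applied.

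Heat shock proteins are molecular chaperones that bind unfolded or partly folded polypeptides. HSP70 proteins do so in a cycle of ATP hydrolysis that J-domain proteins of the HSP40 family start, and that exchange factors such as the BAG and HSP110 proteins reset, while HSP90 finishes the folding of kinases and steroid receptors. When unfolded protein accumulates, the transcription factor HSF1 binds repeated GAA units, the heat shock elements, in the promoters of a subset of these genes. It raises their transcription, whereas many of the other chaperone genes are transcribed at much the same rate with or without stress. HSP40 proteins are sorted by domain layout into class A, which has a zinc-binding region and a glycine-rich region, class B, which has the glycine-rich region only, and class C, which has the J domain without these regions.

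All 6 arrays correlated with each other at 0.997 across probe sets. On the first principal component CA array 1 lay at -1.41, between CA arrays 2 and 3, at 11.6 and 13.3, and the DMSO arrays, at -9.98 to -5.89. On the second, CA array 1 lay at 19.0, against -7.20 to -0.34 for the other 5 arrays. Of 12 listed markers of K562 and erythroid cells, 6 had a probe set of their own, at signals between 6.08 for EPOR and 13.3 for the embryonic globin HBE1. The 14 measured of 16 listed markers of other cell types ran between 2.39 and 11.4, median 3.78, and those above 9 were CD3D, EPCAM and KRT18. The 3' over 5' log2 ratio of actin, a measure of how far labelling ran along the transcript, was 1.14 to 1.31 on CA arrays, against 1.40 to 1.49 on DMSO arrays, and that of GAPDH was 0.58 to 0.63 on CA arrays, against 0.62 to 0.65 on DMSO arrays. The ratio of actin separated the groups, and its part in the results below was not tested.

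One member passed the test across all probe sets. DNAJB4, a class B HSP40 that is inducible by heat, fell 1.53-fold on the CA arrays, and no member was called higher. The gene closest to it in size of change was DNAJB1, the main heat-inducible HSP40 of the cytosol, at 1.32-fold lower, which did not pass. Over the 35 measured members the median log2 change was -0.032, against -0.012 over all 12810 measured genes. The test was limma's moderated linear model with Benjamini-Hochberg adjustment over 27307 probe sets, with 0.05 as the threshold. A gene is represented by its brightest tested probe set, and 0.0859% of all genes passed, 0.0234% downward.

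Transcripts of DNAJB4 had log2 signals of 6.85, 6.80 and 6.78 on the CA arrays, against 7.36, 7.48 and 7.43 on the DMSO arrays. The CA arrays were all below the DMSO arrays, and the gap between the groups was wider than the range within either. Its mean was 6.81 ± 0.04 in CA cells and 7.42 ± 0.06 in DMSO cells (SD, n = 3 each), a log2 change of -0.61 (95% confidence interval -0.73 to -0.49, limma adjusted p = 0.0235). Among all measured genes this was the change of rank 3 from the lowest and of rank 4 by p. A second, dimmer probe set read 6.04, 5.98 and 5.81 on the CA arrays, against 6.40, 6.24 and 6.34 on the DMSO arrays. Its groups did not overlap either, at a log2 change of -0.39 (-0.56 to -0.21), with a limma adjusted p of 0.223. In bulk RNA, fewer cells carrying the transcript and less RNA per cell cannot be told apart.

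The call of DNAJB4 was lost in several alternatives. With all 6 arrays, the limma adjusted p was 0.101 with no filter on dim probe sets, 0.0518 without probe sets that are shared between transcripts and 0.360 with the replicate number as a block. Without CA array 1, 2 or 3 its adjusted p was 0.0916, 0.172 and 0.158, and without DMSO array 1, 2 or 3 it was 0.102, 0.174 and 0.143, with log2 changes between -0.64 and -0.58. The difference in the actin ratio between the groups, given above, stands beside this call, and its part was not tested.

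Signals of DNAJB1 were 8.38, 8.37 and 8.41 on the CA arrays, against 8.74, 8.77 and 8.86 on the DMSO arrays. The 3 CA arrays lay close together and below every DMSO array. The log2 change was -0.40 (-0.52 to -0.28, limma adjusted p = 0.0730), rank 16 by p among all measured genes. On its second probe set the values were 7.73, 7.62 and 7.62 in CA cells, against 7.88, 7.78 and 7.95 in DMSO cells, again without overlap, with a log2 change of -0.21 (limma adjusted p = 0.366). DNAJB1 passed when limma's variance prior was let vary with signal (adjusted p = 0.000147), a setting that called 1.23% of genes, and with a filter at the 75th percentile of signal (adjusted p = 0.00645), which called 1.21%. DNAJB4 passed in both settings, at 4.19e-05 and 0.00142, and no other measured member did on its brightest probe set. With the variance prior that varies with signal, the second probe sets of DNAJB4 (limma adjusted p = 0.0261) and of STIP1 (limma adjusted p = 0.0298) passed too, and that of STIP1 was higher in CA, at a log2 change of 0.26.

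**Figure D1:**
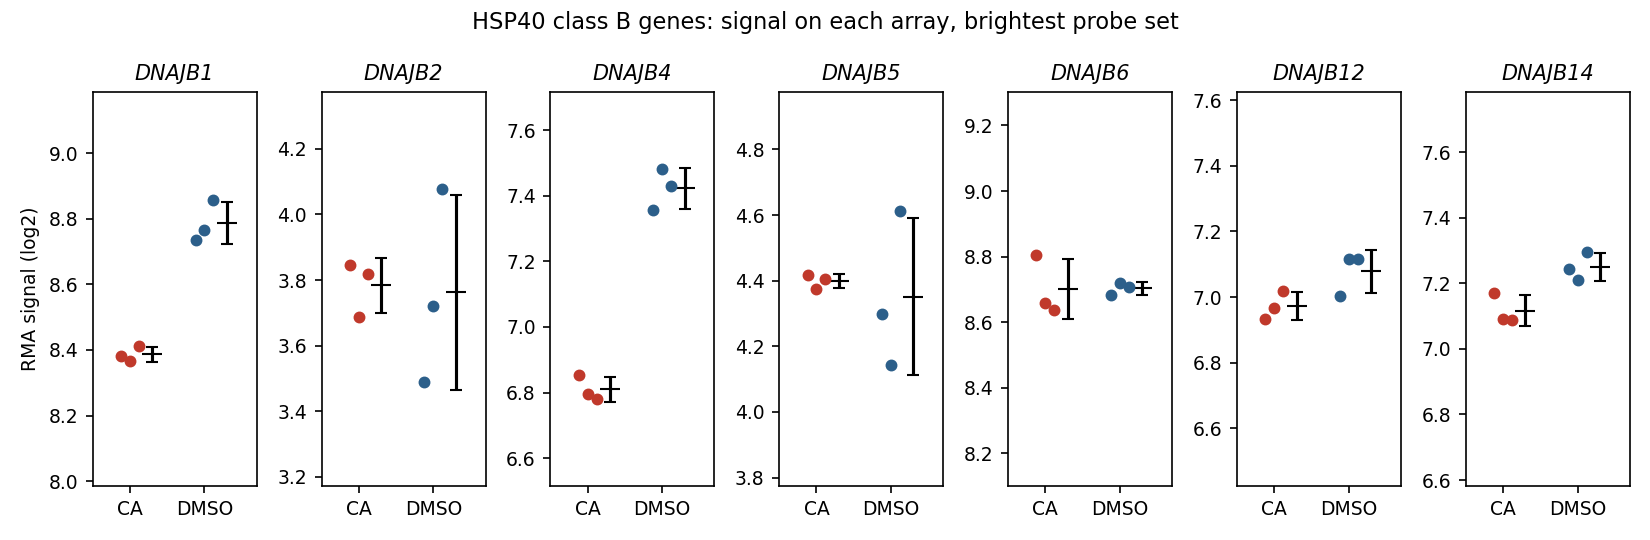
Log2 RMA signal of the 7 class B HSP40 members on each of 3 CA arrays (red) and 3 DMSO arrays (blue). Each panel spans the same range of log2 units, with bars for the mean and SD. DNAJB4 and DNAJB1 have all CA points below all DMSO points by 0.61 and 0.40 on average, while DNAJB2 and DNAJB5 scatter widely among the DMSO arrays.

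The remaining class B members gave smaller differences than DNAJB4 and DNAJB1, as the array-by-array plot of the members shows. DNAJB14, a J-domain protein of the endoplasmic reticulum membrane, had 7.17, 7.09 and 7.09 on the CA arrays, against 7.24, 7.21 and 7.30 on the DMSO arrays. These groups do not overlap, but the gap is small, and the log2 change of -0.13 gave a limma adjusted p of 0.459, with -0.07 and -0.18 on its other 2 probe sets. DNAJB12, its close relative in the same membrane, had 6.93, 6.97 and 7.02 in CA cells, against 7.00, 7.12 and 7.12 in DMSO cells, and the groups overlapped. Its log2 change was -0.11 there, and -0.04, 0.03 and 0.13 on its other 3 probe sets. For DNAJB6, which keeps aggregation-prone proteins soluble, the values were 8.81, 8.66 and 8.64 on the CA arrays and 8.68, 8.72 and 8.71 on the DMSO arrays. DNAJB6 is the brightest class B member, and its change of 0.00 had an interval of -0.14 to 0.13. Probe sets that list DNAJB6 together with TMEM135 were brighter, at signals of 9.31 and 9.17, and are not counted here. Their log2 changes were 0.05 and 0.09 (limma adjusted p = 0.867 and 0.660), and their groups overlapped.

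DNAJB2 and DNAJB5 lay near the filter on dim probe sets, which stood at 3.49. DNAJB2, known from neurons, had 3.85, 3.69 and 3.82 in CA cells and 3.49, 3.72 and 4.08 in DMSO cells. DNAJB5 had 4.42, 4.37 and 4.41 in CA cells and 4.30, 4.14 and 4.61 in DMSO cells. In both genes the DMSO arrays enclosed the CA arrays, and their intervals, -0.32 to 0.37 and -0.23 to 0.32, were the widest of the 35 measured members. Over the 7 class B members, the median log2 change was -0.106, which is the value of the brightest DNAJB12 probe set. It was -0.0023 with each gene's probe sets averaged and 0.090 with scaling to the 3' poly(A) controls described at the end. On the brightest probe sets, 3 of the 7 members were at an unadjusted p under 0.05, all lower in CA. The share over all measured genes was 8.61% in either direction, 5.02% lower and 3.59% higher. DNAJB9, DNAJB11 and DNAJB13 were measured but were not members, so they are outside this median and count. Their log2 changes were 0.21, 0.02 and 0.22, and DNAJB9 had a limma unadjusted p of 0.00261.

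Promoter windows of 5 members are shown to set the letters of the heat shock element beside the changes: the 3 members with the smallest p, DNAJB4, DNAJB1 and DNAJB14, and the 2 HSF1-inducible members with the smallest change, HSPD1 at 0.00 and CACYBP at -0.01. Sequences are from RefSeq on GRCh38.p14, 250 bases before to 50 after an annotated start, written 5′ to 3′ on the strand of the gene. Capitals mark matches to 2 adjoining inverted units, GAANNTTC or TTCNNGAA, or to either of these extended by a further unit at the same spacing, on both strands, and 3-unit matches contain 2-unit ones. For a gene with several annotated starts, the window with the most matches is given.
DNAJB4 chr1:78004689-78004988 + strand: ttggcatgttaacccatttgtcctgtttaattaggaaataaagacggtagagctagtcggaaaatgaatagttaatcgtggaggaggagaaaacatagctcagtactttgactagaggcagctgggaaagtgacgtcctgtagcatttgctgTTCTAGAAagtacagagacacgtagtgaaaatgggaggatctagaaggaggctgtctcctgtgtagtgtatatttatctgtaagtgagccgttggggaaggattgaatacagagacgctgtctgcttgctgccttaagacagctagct
DNAJB1 chr19:14518348-14518647 - strand: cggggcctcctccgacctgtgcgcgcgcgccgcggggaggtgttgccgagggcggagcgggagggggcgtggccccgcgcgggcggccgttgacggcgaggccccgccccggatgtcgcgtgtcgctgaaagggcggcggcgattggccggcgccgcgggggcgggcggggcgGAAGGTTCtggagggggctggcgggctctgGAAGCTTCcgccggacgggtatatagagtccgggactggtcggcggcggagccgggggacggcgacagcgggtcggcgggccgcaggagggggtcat
DNAJB14 chr4:99946569-99946868 - strand: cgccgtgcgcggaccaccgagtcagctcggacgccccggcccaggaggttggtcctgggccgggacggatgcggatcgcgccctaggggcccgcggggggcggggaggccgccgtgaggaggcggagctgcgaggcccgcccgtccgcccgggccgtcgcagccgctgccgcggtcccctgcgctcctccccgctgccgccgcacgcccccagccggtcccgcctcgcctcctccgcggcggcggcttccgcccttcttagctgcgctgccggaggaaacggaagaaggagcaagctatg
HSPD1 chr2:197499791-197500090 - strand: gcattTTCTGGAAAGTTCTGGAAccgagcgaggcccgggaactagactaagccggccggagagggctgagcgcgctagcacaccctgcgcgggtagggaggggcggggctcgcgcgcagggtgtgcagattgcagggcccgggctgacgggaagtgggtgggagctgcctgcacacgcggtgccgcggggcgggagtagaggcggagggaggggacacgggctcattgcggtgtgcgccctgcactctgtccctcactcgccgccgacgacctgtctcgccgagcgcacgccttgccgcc
CACYBP chr1:174999185-174999484 + strand: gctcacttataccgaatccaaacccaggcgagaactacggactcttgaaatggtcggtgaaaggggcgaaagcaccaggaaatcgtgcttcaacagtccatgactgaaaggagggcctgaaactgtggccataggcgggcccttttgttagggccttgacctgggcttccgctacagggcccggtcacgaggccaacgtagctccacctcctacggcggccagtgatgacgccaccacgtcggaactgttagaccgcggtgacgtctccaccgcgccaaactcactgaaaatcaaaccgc

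The DNAJB4 window holds 1 match of 2 units, TTCTAGAA, at -98 to -91 from the start, and its other annotated window holds none. DNAJB1 has 2 matches here, GAAGGTTC at -77 to -70 and GAAGCTTC at -47 to -40. In DNAJB14 and CACYBP these letters are not in the window. HSPD1, with a log2 change of 0.00 on its brightest probe set and 0.10 on its second, has the longest run of units of the 5. It holds TTCTGGAAAGTTC and GAAAGTTCTGGAA, which overlap between -245 and -228.

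Of the members, 35 had a promoter window, and 17 of these, or 48.6%, held a 2-unit match in at least 1 window, against 16.2% of all 27305 genes in the table. A 3-unit match was in 7 members, or 20%, against 0.608% of all genes. These were HSPA8, HSP90AA1, HSP90AB1, HSPD1, DNAJA1, DNAJB6 and CHORDC1. The 6 of them that were measured had log2 changes between -0.08 and 0.05 on their brightest probe sets. Of these probe sets, 0 were called by limma or had an unadjusted p under 0.05. Over all measured genes 0.0859% were called and 8.61% had such a p. By class, a 2-unit match was in 11 of 16 inducible and 6 of 18 constitutive genes, and a 3-unit match in 4 and 3 of them. A match is a run of letters and not evidence that HSF1 binds there.

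Neither class A nor class C held a called gene, where 0.0859% of all measured genes were called. DNAJA1, the brightest class A co-chaperone, had 10.95, 10.97 and 10.97 in CA cells, against 11.03, 11.04 and 11.05 in DMSO cells. The 2 groups were each tight and did not overlap, yet the log2 change was only -0.08 (-0.17 to 0.02), with -0.07 on its second probe set. DNAJA3, the J-domain protein of mitochondria, had 9.77, 9.77 and 9.72 in CA cells, against 9.82, 9.79 and 9.79 in DMSO cells. The groups did not overlap but their nearest arrays were almost level, at a log2 change of -0.04. DNAJA4 was the member with the highest change, at 0.11 (-0.01 to 0.23, limma adjusted p = 0.579). Its values were 5.01, 5.08 and 5.11 on the CA arrays and 4.90, 5.01 and 4.97 on the DMSO arrays, at a low signal. DNAJA2, a constitutive class A protein, had a log2 change of -0.03. The class A median was -0.038 over 4 genes. In class C, DNAJC2, which sits on the ribosome with HSPA14, had 10.11, 10.12 and 10.09 in CA cells and 10.10, 10.23 and 10.18 in DMSO cells. DNAJC7, which also binds HSP90, had a log2 change of -0.03, and the class C median was -0.046 over 2 members. Other DNAJC genes were not members and are among the further genes below. The differences between classes A, B and C were not tested, because the members were chosen with results in view.

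**Figure D2:**
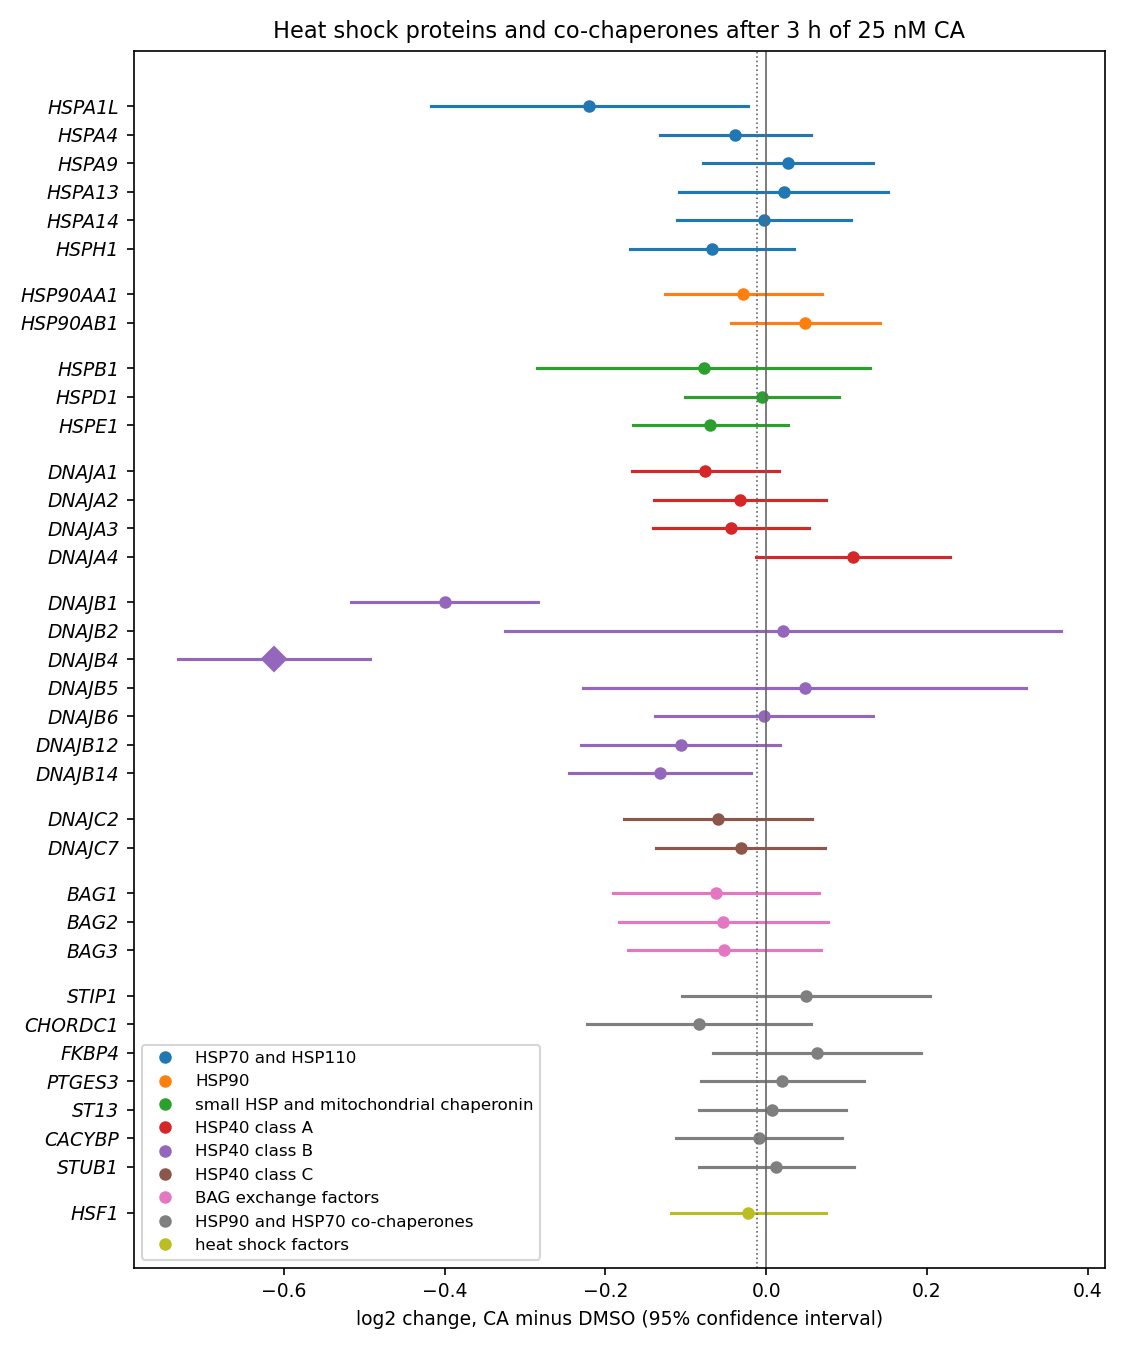
Log2 change, CA minus DMSO, with its 95% confidence interval for each of the 35 measured members, grouped and coloured by family. The diamond marks DNAJB4, the gene that passed the test, circles mark the others, the solid line is 0 and the dotted line is the median of all measured genes at -0.012.

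Among the HSP70 and HSP110 genes, 0 of 6 measured were called by limma, and 1, HSPA1L, had an unadjusted p under 0.05. The shares over all measured genes were 0.0859% and 8.61%. HSPA1L, an HSP70 best known from testis, had 5.25, 5.28 and 5.49 on the CA arrays, against 5.67, 5.49 and 5.52 on the DMSO arrays. The highest CA array and the lowest DMSO array were level, and the log2 change was -0.22 (-0.42 to -0.02, limma adjusted p = 0.487). HSPH1, the heat-inducible HSP110 exchange factor, had 9.94, 9.96 and 9.96 in CA cells, against 9.98, 10.07 and 10.02 in DMSO cells. These did not overlap, with log2 changes of -0.07, 0.00 and -0.16 on its 3 probe sets. HSPA4, a constitutive HSP110, had 10.68, 10.63 and 10.65 in CA cells, against 10.69, 10.69 and 10.69 in DMSO cells. That is a change of -0.04, with the other 3 probe sets at 0.00, -0.03 and 0.06. HSPA9, the mitochondrial HSP70 and the brightest measured member of the family, had 11.29, 11.30 and 11.34 in CA cells and 11.24, 11.33 and 11.28 in DMSO cells, which overlap. HSPA13 and HSPA14 had log2 changes of 0.02 and 0.00.

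HSPA1A and HSPA1B encode the major inducible HSP70 from near-identical adjacent genes, and their probe sets could not be assigned to either. The 3 probe sets whose annotation lists both symbols, 1 of them with HSPA1L as well, are therefore given as probe sets and not as genes. The dimmest had 10.03, 9.89 and 9.94 on the CA arrays, against 10.28, 10.31 and 10.27 on the DMSO arrays, a log2 change of -0.33 (-0.45 to -0.21, limma adjusted p = 0.129). The one shared with HSPA1L had 11.73, 11.63 and 11.64 on the CA arrays, against 11.86, 11.90 and 11.93 on the DMSO arrays, a log2 change of -0.23 (limma adjusted p = 0.247). The brightest had 12.33, 12.42 and 12.34 on the CA arrays, against 12.44, 12.52 and 12.42 on the DMSO arrays, a log2 change of -0.10 (limma adjusted p = 0.608). All 3 read lower on every CA array than on any DMSO array, and none passed the test. On the brightest, the nearest arrays were almost level, at 12.4177 in CA and 12.4195 in DMSO. Arrays did not overlap, with CA lower, in 8.52% of all tested probe sets. The 4 probe sets that list HSPA8, the constitutive HSP70, together with the small nucleolar RNAs of its introns had log2 changes between -0.05 and 0.01 at signals of 12.8 to 13.1.

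None of the HSP90, chaperonin and small heat shock protein genes passed the test. By limma 0 of 5 were called, against 0.0859% of all measured genes, and 0 had an unadjusted p under 0.05, against 8.61%. HSP90AA1, the inducible cytosolic HSP90, had 12.92, 12.90 and 12.92 in CA cells and 12.90, 12.96 and 12.96 in DMSO cells. HSP90AB1, its constitutive partner, had 12.61, 12.59 and 12.59 in CA cells, against 12.54, 12.57 and 12.54 in DMSO cells. The CA arrays were all the higher ones, by a log2 change of 0.05 (-0.04 to 0.14, limma adjusted p = 0.763), with 0.10 and 0.13 on its other probe sets. HSPD1, the chaperonin of mitochondria, had 12.89, 12.92 and 12.91 in CA cells and 12.89, 12.90 and 12.94 in DMSO cells. Its change was 0.00 (-0.10 to 0.09). The other tested probe sets of HSPD1 had 0.10, -0.01 and 0.12. The first of these, at a signal of 11.6, read higher on every CA array than on any DMSO array (-0.005 to 0.20, limma adjusted p = 0.555). HSPE1, the chaperonin's lid, is transcribed from the opposite side of the same promoter region. It had 11.16, 11.14 and 11.14 in CA cells, against 11.20, 11.25 and 11.20 in DMSO cells, which do not overlap, at a change of -0.07 (limma adjusted p = 0.670). HSPB1, the small heat shock protein also called HSP27, had a log2 change of -0.08 (-0.28 to 0.13), and its CA arrays ran between 9.56 and 9.88, on both sides of the DMSO arrays at 9.75 to 9.86.

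Co-chaperones outside the DNAJ family gave 0 limma calls among 10 measured, and 0 at an unadjusted p under 0.05. Of all measured genes, 0.0859% were called and 8.61% were at such a p. The 3 BAG exchange factors all had fitted values a little below 0: BAG1 at -0.06, BAG2, which blocks the ubiquitin ligase STUB1, at -0.05, and BAG3, the heat-inducible member that directs clients to autophagy, at -0.05. BAG2, the brightest, had 9.53, 9.36 and 9.44 in CA cells and 9.53, 9.49 and 9.47 in DMSO cells. PTGES3, the p23 protein that closes the HSP90 cycle, had 12.64, 12.57 and 12.64 in CA cells and 12.59, 12.58 and 12.62 in DMSO cells. The other co-chaperones of HSP90 and HSP70 lay between -0.08 for CHORDC1 and 0.06 for FKBP4, with ST13 at 0.01, STUB1 at 0.01 and CACYBP at -0.01. STIP1, which holds HSP70 and HSP90 together, differed between its probe sets. Its brightest had a change of 0.05, and its second had 8.67, 8.57 and 8.43 on the CA arrays, against 8.28, 8.32 and 8.28 on the DMSO arrays, a log2 change of 0.26 (limma adjusted p = 0.333). These groups did not overlap, and the second probe set passed with the variance prior that varies with signal, as given above.

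The regulator HSF1 itself had 7.00, 6.96 and 7.00 in CA cells and 6.99, 7.04 and 7.01 in DMSO cells. The groups overlapped, and the change was -0.02 (-0.12 to 0.07). Its second probe set, close to the filter, had 3.79, 3.83 and 3.89 on the CA arrays, against 3.17, 3.55 and 3.72 on the DMSO arrays, a log2 change of 0.36 in the other direction (limma adjusted p = 0.484). These values are of the transcript and say nothing of the activity of the HSF1 protein.

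**Figure D3:**
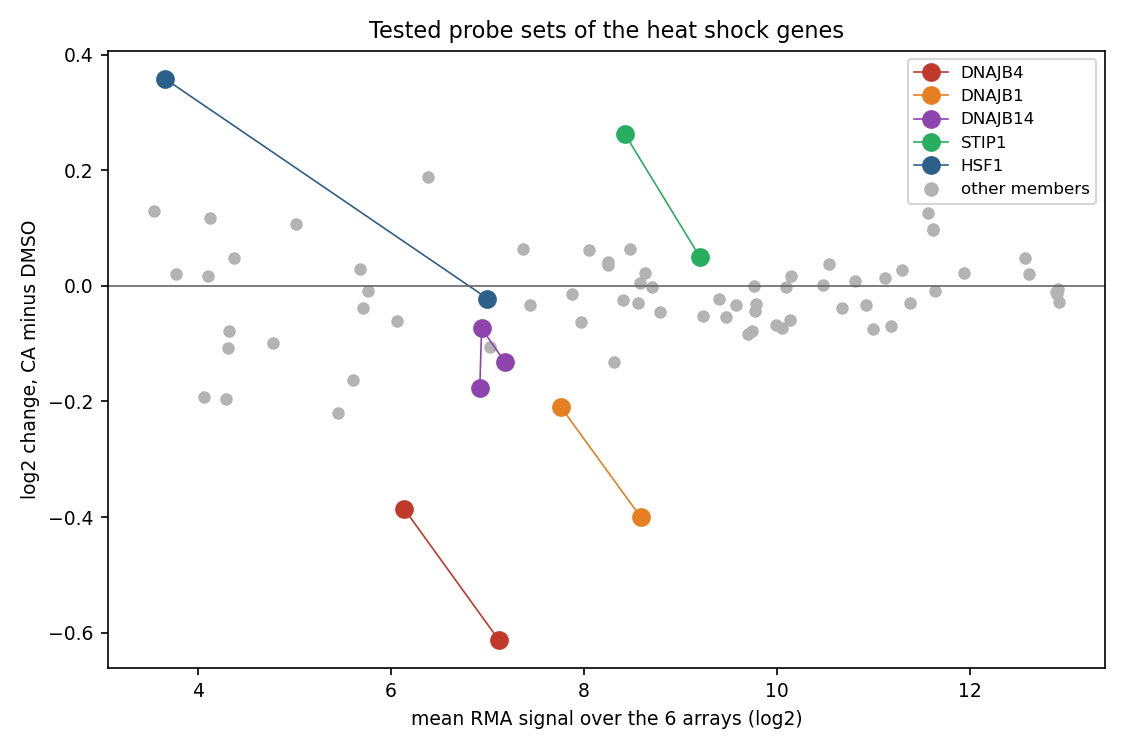
Log2 change, CA minus DMSO, against the mean log2 RMA signal over the 6 arrays for the 80 tested probe sets of the members, with those of 5 genes coloured and joined. DNAJB4, DNAJB1 and DNAJB14 lie below 0 on every probe set, while the dim probe set of HSF1 at 0.36 and the second of STIP1 at 0.26 are the highest.

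Probe sets of 1 gene agreed in sign for 14 of the 25 members that had 2 or more tested, of which 10 were below 0 throughout and 4 above 0 throughout. The other 11 were mixed, and most of their values were close to 0, as the plot of change against signal shows. At an unadjusted p under 0.05 there were 10 of the 80 probe sets, 8 lower and 2 higher, against 9.31% of all tested probe sets, 4.76% lower and 4.55% higher. Arrays of the 2 groups did not overlap in 15 probe sets with CA lower and 7 with CA higher, against 8.52% and 7.09% of all tested probe sets.

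The genes were then set side by side by whether HSF1 is known to induce them. This split came from general knowledge and was not checked in these data. Of 17 such members 14 were measured: HSPH1, HSP90AA1, HSPB1, HSPD1, HSPE1, DNAJA1, DNAJA4, DNAJB1, DNAJB4, BAG3, CHORDC1, STIP1, FKBP4 and CACYBP. DNAJB4 was called, DNAJB1 was the other at an unadjusted p under 0.05, and the remaining 12 ran between -0.08 and 0.11. The median log2 change was -0.060, and 11 of the 14 fitted values were below 0. Not measured were HSPA1A, HSPA1B and AHSA1. The probe sets shared by HSPA1A and HSPA1B, given above and not counted here, read -0.33, -0.23 and -0.10 (limma unadjusted p = 0.000368, 0.00223 and 0.0881). Of 21 constitutive members 20 were measured, with 0 called by limma, 2 at an unadjusted p under 0.05 (HSPA1L and DNAJB14), a median of -0.017 and 12 fitted values below 0. Over all measured genes 56.5% of fitted values were below 0, 8.61% had an unadjusted p under 0.05 and 0.0859% were called. CA arrays lay entirely below DMSO arrays in 5 inducible and 3 constitutive genes and entirely above in 1 of each, against 9.95% and 6.14% of all measured genes.

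The intervals of the brightest probe sets give a range of change for those probe sets, on the RMA scale. Of the 34 members not called, 29 had a 95% confidence interval inside a 1.2-fold change in either direction, and all 34 inside a 1.5-fold change. The 5 with wider intervals than 1.2-fold were DNAJB1, DNAJB2, DNAJB5, HSPA1L and HSPB1. The limits do not cover the other probe sets of a gene. The dim one of HSF1 had an interval of 0.04 to 0.68, past 1.5-fold, and the second of STIP1 had 0.10 to 0.42, past 1.2-fold. Others past 1.2-fold included probe sets of HSPA13 (-0.04 to 0.42), DNAJB14 (-0.35 to -0.01), HSPH1 (-0.29 to -0.04) and BAG2 (-0.56 to 0.17). Nor do the limits hold on another scale: DNAJA4 had 0.30, past 1.2-fold, with the 3' poly(A) control scaling described at the end.

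**Figure D4:**
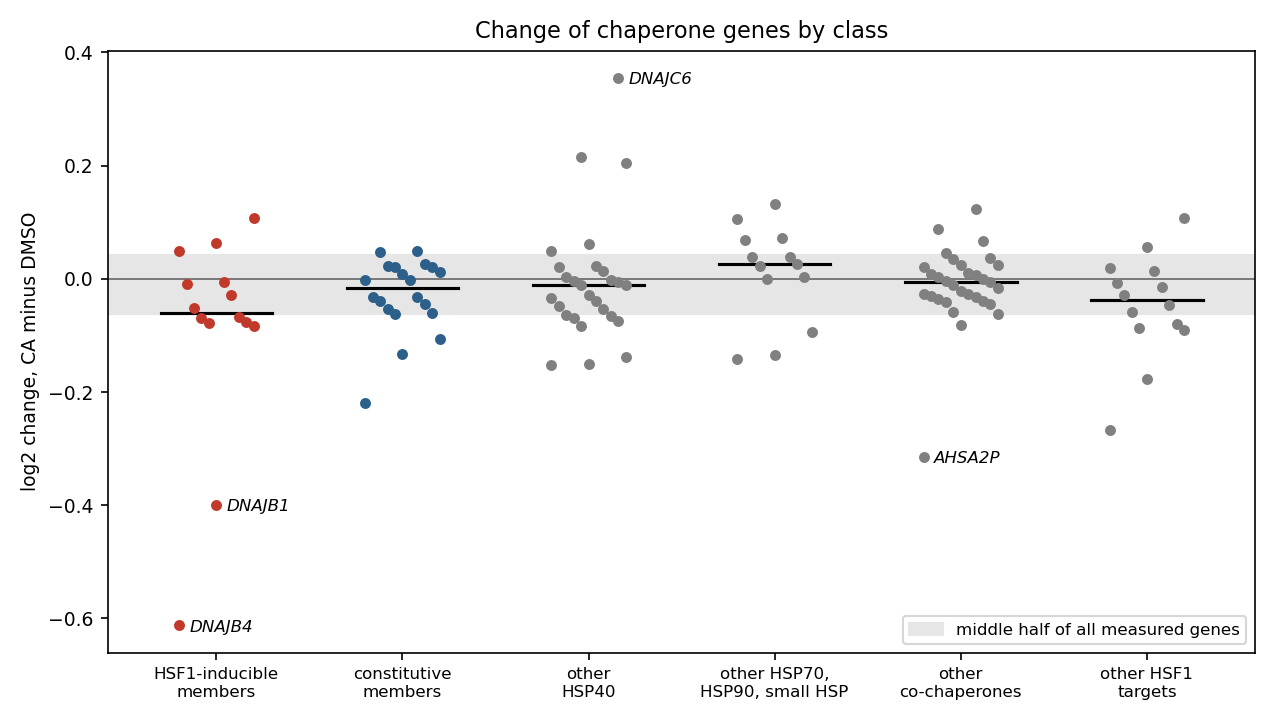
Log2 change, CA minus DMSO, of each measured gene in the HSF1-inducible and constitutive member classes and in 4 lists of further chaperone genes, with a black line for each median. The grey band holds the central part of all measured genes, between the 25th and 75th percentile, at -0.062 and 0.043. In the inducible class DNAJB4 and DNAJB1 stand at -0.61 and -0.40, outside the band. Other inducible members also lie outside it but nearer to it, on both sides, as far as CHORDC1 at -0.08 and DNAJA4 at 0.11.

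Further genes of the pathway came from 4 lists, of which 85 of 101 genes were measured. By limma 0 were called, and 7 had an unadjusted p under 0.05, 4 lower and 3 higher in CA, a share of 8.24% against 8.61% of all genes. In the other HSP40 genes, DNAJC6, the auxilin that uncoats clathrin vesicles, had 10.07, 10.06 and 10.00 in CA cells, against 9.69, 9.75 and 9.62 in DMSO cells, a log2 change of 0.35 (limma adjusted p = 0.115). DNAJB9, a J-domain protein of the endoplasmic reticulum induced by the unfolded protein response, had 0.21 (limma adjusted p = 0.252). These 2 J-domain genes read higher on every CA array than on any DMSO array, the opposite side to DNAJB4 and DNAJB1, and 4 of the 27 measured genes in their list had an unadjusted p under 0.05, 2 each way.

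Among the other HSP70, HSP90 and small heat shock protein genes, HSPA5, the HSP70 of the endoplasmic reticulum, had -0.13 (limma adjusted p = 0.468) and the lens crystallin CRYAA, near the filter, had 0.13. Of further co-chaperones and chaperonin subunits, AHSA2P, a pseudogene related to AHSA1, had -0.31 (limma adjusted p = 0.333) and GRPEL1, the exchange factor of the mitochondrial HSP70, had 0.12. Other targets and regulators of HSF1 gave 0 of 14 at an unadjusted p under 0.05, against 8.61% of all measured genes. CA arrays lay entirely below DMSO arrays in 5 of these 14 and entirely above in 0, against 9.95% and 6.14% of all measured genes. Over all the further lists together this was 16 and 6 of 85 genes. The lowest p in that list were those of DEDD2 at -0.18 and ZFAND2A at -0.09, and its median was -0.037, with 10 of 14 below 0.

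All changes are relative to the other transcripts on each array. The exogenous poly(A) RNAs added to each sample read lower in CA at their 3' end, at 8.08 to 8.17 on CA arrays, against 8.24 to 8.37 on DMSO arrays, and scaling to them would add 0.20 to each log2 change. The median of all measured genes would then be 0.18 and that of the members 0.16, with 0.136 for the inducible and 0.179 for the constitutive members. On that scale DNAJB4 was still called and lower in CA (-0.42, limma adjusted p = 0.0231), DNAJB1 had -0.20, and DNAJA4, FKBP4, HSP90AB1 and STIP1 were called upward, at 0.30, 0.26, 0.24 and 0.24 in that order. On this scale 1472 of the 12810 genes were called. The 5' probe sets of the same RNAs would add 0.04.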

How the data were processed

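Expression was measured on 6 arrays, 3 CA and 3 DMSO. The authors deposited log2 values for 54675 probe sets, with RMA and affy named per the submitters' processing notes, with no version given. RMA gives all arrays the same distribution, which would hide a shift common to most transcripts. Depth does not apply, and the number of arrays limits the precision (median SE of a log2 change 0.066).

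From these values, 62 control probe sets were left out, and 27307 with a mean at or above the median of means were tested with lmFit and eBayes in limma 3.58.1 under R 4.3.3, two-sided and without a block. Symbols came from the platform annotation, in which 41091 probe sets had 1 symbol, 1801 several and 11721 none, and 41037 of the first were found by gene ID in RefSeq with 0 differing. The test was checked on simulated data.

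The members and lists were chosen with earlier results of these data known, so no test was made over a list. Array values are given for called members, those whose groups do not overlap, class B members, and the brightest of each family. Of the further lists, the 2 genes of smallest p are given, with DNAJB11 and DNAJB13 added beside the class B members. Other probe sets, HSPA1L, DNAJB11, DNAJB13 and the 3-unit promoters were named after their values were seen. Alternatives tried were the variance prior, the filter, normalisation, control scaling, array weights, a replicate block, shared probe sets, probe set averaging and leaving out each array. Deviations from the group means correlated at -0.07, 0.01 and 0.06 between arrays of equal replicate number. With 3 arrays in each group this cannot settle whether the wells were paired.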

Additional observations from a re-analysis of the deposited data

How the results depend on the processing

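DNAJB4 kept its direction in all 17 alternatives (-0.64 to -0.42) and its call in 8. It lost the call without each array, with no filter (limma adjusted p = 0.101), without shared probe sets (0.0518) and with the replicate block (0.360). DNAJB1 was below 0 in all 16 (-0.43 to -0.20) and called in 2; both its probe sets are shared, so the setting without them gave no value. Over the member genes, 502 alternative values kept their call or, uncalled, moved by less than the spread between replicates, 63 moved by more without a call, 9, all of DNAJB4, lost a call and 6 gained it; 0 called changes turned sign. The cause of the differences between settings was not tested.

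Probe sets called numbered 26, and 285 with the trend, 5 unfiltered, 162 above the 75th percentile, 3691 with 3' control scaling, 0 with the replicate block by limma (2485 at an unadjusted p under 0.05), 1 without shared probe sets and 2 to 5 without an array. Members called numbered 1, and in the same order 2, 0, 2, 5, 0, 0 and 0. Members at an unadjusted p under 0.05 numbered 4, and 8 with the trend, 19 with 3' and 2 with 5' control scaling. They numbered 2 with the replicate block, 2 to 5 without an array, 3 unfiltered and 4 without shared probe sets. Of all 27307 tested probe sets, 2542 had such a p, and 2898 with the trend, 13862 with 3' and 1503 with 5' control scaling. It was 2485 with the replicate block and 2095 to 3090 without an array. Unfiltered it was 3740 of 54613, and without shared probe sets, where fewer were tested, 1370. The labels do not say whether same-numbered arrays share a culture or day, and the block changed no fitted value.

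The member median of -0.032 was 0.164 with 3' and 0.011 with 5' control scaling, -0.013 with probe sets averaged and -0.036 to -0.019 without an array. The inducible median of -0.060 was 0.136 with 3' and -0.017 with 5' scaling and -0.064 to -0.027 without an array. The constitutive median of -0.017 was 0.179 and 0.026 with 3' and 5' scaling and -0.033 to -0.0020 without an array. Class A, at -0.038, gave 0.157 and 0.0043 with these and -0.051 to -0.021 without an array. Class B, at -0.106, gave 0.090 and -0.063, -0.132 above the 75th percentile, -0.0023 with probe sets averaged and -0.135 to -0.086 without an array. Class C, at -0.046, gave 0.15 and -0.0032, -0.043 with quantile normalisation again, -0.061 with centring, -0.032 without shared probe sets, -0.063 with probe sets averaged and -0.057 to -0.023 without an array.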
